A study of Mus musculus with 30 samples.

Results

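The Zfp genes named by number are a large part of the mouse C2H2 zinc finger family, and 252 of them were followed in liver RNA sequencing of 2 inbred mouse strains and their crosses. They are the autosomal protein-coding genes whose symbol is Zfp and a number, without *Zfp57* and *Zfp445*, with a mean CPM of at least 1 (counts-per-million values, total over both alleles) over 29 mice. Of 42880 genes in the files, 314 had such a symbol and 252 reached that level. Just inside the limit were *Zfp454* with a mean of 1.01 CPM, *Zfp61* with 1.08 CPM and *Zfp112* with 1.13 CPM. Just outside were *Zfp790* with 0.974 CPM, *Zfp462* with 0.839 CPM and *Zfp566* with 0.822 CPM.

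C2H2 zinc finger proteins bind DNA through tandem fingers, each folded around a zinc ion, and many carry an N-terminal KRAB domain that recruits TRIM28 and, through it, histone methyltransferases and heterochromatin proteins. Many of these genes arose by tandem duplication, so they lie in clusters of related copies, and many of their proteins bind and silence transposable elements. Not every Zfp gene is of this kind, since the symbol also covers RNA-binding proteins and ubiquitin ligases with zinc fingers.

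Both inbred strains, CC019 and CC037, belong to the Collaborative Cross, a panel whose genomes are mosaics of shared founder strains. The mice were 6 CC019 inbreds (3 males and 3 females), 9 CC037 inbreds (4 males and 5 females), 6 CC019 x CC037 F1s (3 males and 3 females) and 8 CC037 x CC019 F1s (3 males and 5 females), with the maternal strain first. All were 4 months of age by their labels, and each gave 1 liver library with a depth of 27672008 to 63258035 expected counts. Inbreds and F1s were sequenced in separate batches, so a difference in total level between them cannot be told apart from batch. Some inbreds were run in both batches, but the files hold each mouse once, so that these repeats could not be used here. The tissue label fits its markers. The summed level of 7 hepatocyte markers ran from 66122 to 132526 CPM over the 29 mice, led by *Alb* at 50171 to 107193 CPM, whereas 5 Kupffer cell markers summed to 52.2 to 541 CPM and 5 lymphocyte markers to 3.22 to 32.7 CPM.

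Some libraries stood apart in markers of other cells. The CC019 replicate female_3 had 68 CPM of the 4 proliferation markers, against 1.36 to 5.92 CPM in the other CC019 mice, and 882 CPM of the erythroid markers, against 109 to 225 CPM. The CC037 x CC019 replicate female_3 had 32.3 CPM of the proliferation markers, against 1.86 to 5.55 CPM in the others of its cross. Without the CC019 mouse 43 Zfp genes passed the strain threshold, 39 of them among the 43 that passed with it.

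Per length the Zfp genes were lowly expressed. Their median TPM (transcripts-per-million values, a level per length) was 3.22, against 9.22 over the 13185 genes tested, and their median CPM was 6.27 against 15.8. The highest TPM were those of *Zfp706* with 182, *Zfp787* with 51.4, *Zfp36* with 42.8, *Zfp207* with 36.8 and *Zfp598* with 34.6. *Zfp36* encodes tristetraprolin, which speeds the decay of mRNAs with AU-rich elements, *Zfp598* a ubiquitin ligase of collided ribosomes and *Zfp207* a protein of the mitotic spindle, so that at least these 3 abundant members are not KRAB repressors. The lowest TPM were those of *Zfp618* with 0.288, *Zfp93* with 0.364, *Zfp619* with 0.368, *Zfp366* with 0.381 and *Zfp334* with 0.489. Counts of all 252 genes together made up 2461 to 3199 CPM of a library. This sum overlapped between the groups, with a median of 2785 CPM in CC019, 2833 in CC037, 2932 in CC019 x CC037 and 2868 in CC037 x CC019.

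The TPM of some members rest on unequal reference sequences. Each transcript had a version per strain in the reference to which reads were assigned, and for 46 of 249 Zfp genes over 10% of counts lay on transcripts whose versions differed in length by over 5%. This share of 18.5% compares with 17.6% over autosomal protein-coding genes tested. The most counted transcript of *Zfp706* had 6771 bases in its CC019 version and 520 in its CC037 version, and that of *Zfp787* had 576 and 153 bases. For *Zfp120* the lengths were 4125 and 141 bases. TPM, which divide by length, are therefore uncertain for these 3 genes. For *Zfp36*, *Zfp207* and *Zfp598* the versions had equal lengths.

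How far the alleles of a gene can be told apart was measured in the inbreds, in which every read should fall on the strain's own version. In 86 of 252 Zfp genes (34.1%) at least 90% of counts lay on the own allele in every inbred, and these are called resolved below. The share over autosomal protein-coding genes tested was 33.1%. In 82 Zfp genes the lowest own-allele share was 45 to 55%, the value of versions with nearly the same sequence, between which the counts are split. In 47 it was under 45%, so that most counts of at least 1 inbred lay on the other strain's version. Of these 47 genes 30 had versions of unequal length (63.8%), against 3 of the 86 resolved genes (3.49%). Over autosomal protein-coding genes tested these shares were 51.5% and 5.96%, so the contrast is a general one. In *Zfp787*, for example, the own-allele share fell to 0.458% in 1 inbred. Allelic values are given for the resolved genes alone.

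The first comparison asked which Zfp genes differed in total level between the inbred strains. Of 252 genes 43 passed the threshold (17.1%), against 23.9% of the 13185 genes tested. The threshold was an adjusted p of at most 0.05 in the edgeR quasi-likelihood test with Benjamini-Hochberg adjustment over all genes tested, and log2 values are positive where CC019 was higher. By direction, 21 (8.33%) were higher in CC019, against 12.7% of all genes, and 22 (8.73%) were higher in CC037, against 11.3%. The CPM values of the strains did not overlap in 17 of 252 Zfp genes (6.75%), against 8.15% of all genes. The median absolute log2 fold change was 0.17 over the Zfp genes and 0.20 over all genes, with a median SE of 0.12 in both. On the log2 scale 9 Zfp genes (3.57%) differed by at least 1, against 6.93% of all genes. In bulk liver RNA, fewer cells of a type and less RNA per cell cannot be told apart.

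Some markers of cell types passed between the strains as well. Of 7 hepatocyte markers *Alb* (0.36) and *Apoa1* (0.67) were higher in CC019, and the sum of the 7 was 93127 to 118579 CPM in CC019 and 66122 to 101718 CPM in CC037, with overlap. Of 5 stellate markers *Hgf* (-1.03) and *Reln* (-0.44) were lower, and their sum was 78.2 to 120.1 CPM in CC019 and 104 to 171 CPM in CC037. Of 5 cholangiocyte markers *Epcam* (1.07) was higher and *Sox9* (-1.17) lower, and of the proliferation markers *Cdk1* (1.74) was higher. No Kupffer cell, endothelial, lymphocyte or erythroid marker passed. The part of other cell types in the strain differences of the Zfp genes was not tested.

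The largest difference was that of *Zfp979* (ENSMUSG00000066000, chromosome 4, 147611937 to 147642513 in GRCm38). Its level in the 3 CC019 females was 5.27, 5.61 and 5.7 CPM, and in the 3 CC019 males 1.61, 1.53 and 1.54 CPM. In the 9 CC037 mice it was 0.17 to 0.682 CPM with a median of 0.336. Every CC019 mouse was thus above every CC037 mouse, and within CC019 the sexes did not overlap. The log2 fold change was 3.17 (SE 0.37, n = 6 and 9, adjusted p = 1.02e-05 by edgeR). It was 4.30 in females alone and 1.63 in males alone, both past the threshold, and whether these differ was not tested. The F1s had 1.45 to 3.26 CPM in CC019 x CC037 and 1.62 to 3.2 CPM in the reciprocal cross. All of them were above the CC037 mice and below the CC019 females, but 5 of the 6 F1 males were above every CC019 male, and in both crosses the sexes overlapped. Its most counted transcript had 1088 bases in the CC019 version and 2558 in the CC037 version, and the part of this in its difference was not tested.

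*Zfp251* (chromosome 15, 76851609 to 76871435) had 1.38 to 2.47 CPM in CC019 (median 2.25) and 0.278 to 1.01 CPM in CC037 (median 0.501). The strains did not overlap, at a log2 fold change of 2.07 (SE 0.22, adjusted p = 4.54e-06 by edgeR). Its counts were split evenly between the versions in the inbreds, so that its alleles were not resolved. *Zfp9* (chromosome 6, 118461950 to 118479320) had 2.29 to 4.66 CPM in CC019 (median 3.5) and 0.328 to 1.63 CPM in CC037 (median 1.05), again without overlap. Its log2 fold change was 1.70 (SE 0.27, adjusted p = 2.50e-04 by edgeR). *Zfp949* (chromosome 9), with a median of 12.5 CPM in CC019 and 5.23 CPM in CC037, was among the more abundant of these genes and did not overlap between the strains (log2 fold change 1.30, SE 0.14). *Zfp775* (chromosome 6) had medians of 8.03 and 3.61 CPM (log2 fold change 1.29, SE 0.14), *Zfp791* of 2.33 and 1.24 CPM (0.96, SE 0.18) and *Zfp868* of 12.3 and 6.43 CPM (0.94, SE 0.08), each without overlap. The versions of *Zfp868* had unequal lengths, 2247 and 4427 bases. *Zfp457*, with 0.966 to 2.06 CPM in CC019 and 0.8 to 1.18 CPM in CC037, overlapped between the strains (0.65, SE 0.15).

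Of the genes higher in CC037, *Zfp619* (ENSMUSG00000068959, chromosome 7, 39517766 to 39540420) differed most. It had 0.418 to 1.23 CPM in CC019 (median 0.739) and 1.79 to 2.6 CPM in CC037 (median 2.15). No CC019 mouse reached the lowest CC037 mouse, and the log2 fold change was -1.41 (SE 0.18, adjusted p = 2.93e-05 by edgeR). *Zfp39* (chromosome 11, 58888153 to 58904225) had 2.64 to 3.91 CPM in CC019 (median 3.12) and 5.36 to 11 CPM in CC037 (median 7.57). These ranges did not overlap either (log2 fold change -1.29, SE 0.17, adjusted p = 3.51e-05 by edgeR). Next came *Zfp11* (chromosome 5), with 0.708 to 1.51 CPM against 1.89 to 2.9 CPM and no overlap (log2 fold change -1.17, SE 0.16).

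**Figure D1:**
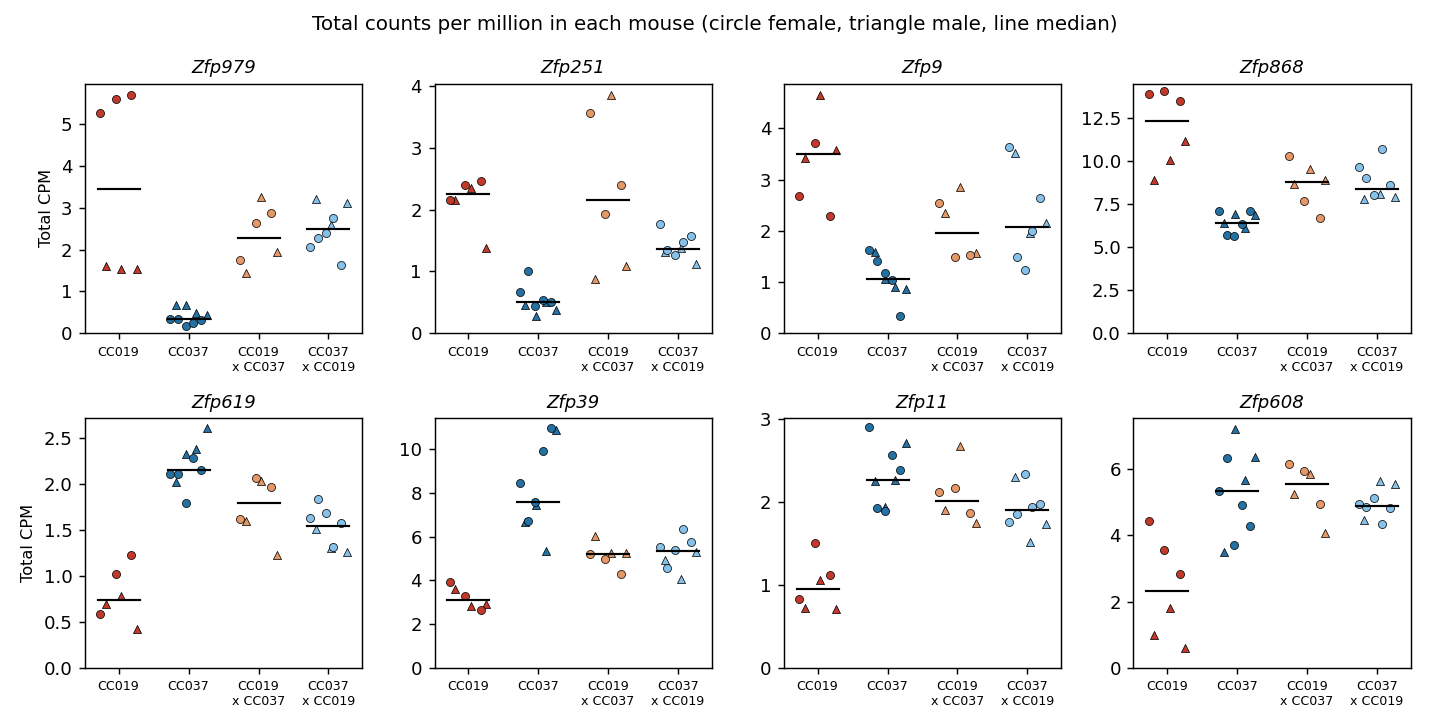
Total level in CPM of 8 Zfp genes in each mouse (circles, females; triangles, males; line, median of the group), with a linear axis from 0. The sexes of CC019 do not overlap for *Zfp979* and *Zfp608*, among others, and the F1s overlap with CC019 for *Zfp979*, with CC037 for *Zfp11* and with both for *Zfp608*.

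*Zfp608* (chromosome 18) was also split by sex within CC019. So were *Zfp949*, *Zfp775*, *Zfp868*, *Zfp941* and *Zfp457*, in all 7 of the 16 genes named for their strain difference, and the sexes of CC019 did not overlap in 43.3% of the Zfp genes and 49.2% of all genes tested. Its level was 4.43, 3.56 and 2.84 CPM in the CC019 females, and 0.98, 1.81 and 0.612 CPM in the CC019 males. The CC037 mice had 3.49 to 7.2 CPM, so that the females of CC019 overlapped with them and the males did not. Its log2 fold change was -1.12 (SE 0.32, adjusted p = 0.0181 by edgeR), and -0.47 in females alone, where it missed the threshold (adjusted p = 0.163), against -2.18 in males alone; the difference between the sexes was not tested. *Zfp941* (-0.90, SE 0.32), *Zfp560* (-0.60, SE 0.21) and *Zfp94* (-0.56, SE 0.18) passed narrowly, with adjusted p of 0.0478, 0.0461 and 0.0365 by edgeR. Leaving out a single mouse ended these calls in 9, 11 and 10 of 15 cases. *Zfp799*, with 3.16 to 6.09 CPM against 5.07 to 8.97 CPM (-0.53, SE 0.14), kept its call in all 15. In 1 sex alone some calls ended. *Zfp94* had -0.84 in females and -0.23 in males (adjusted p = 0.524 by edgeR), and *Zfp941* had -0.51 in females (adjusted p = 0.246) and -1.54 in males. *Zfp799* (-0.36) and *Zfp9* (1.35) missed the threshold in females and *Zfp457* (0.35) in males, and *Zfp560* and *Zfp870* missed it in either sex.

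A score of clock genes, whose phase moves many liver genes, set the mean log2 CPM of *Ciart*, *Dbp* and *Tef* against the mean of *Clock*, *Arntl* and *Npas2*. It was 1.53 to 3.13 in CC019 (median 3.09) and -1.32 to 1.99 in CC037, with overlap. With this score as covariate 33 Zfp genes passed, 24 of them among the 43. With the sex and replicate number as a block 25 passed, 21 of them among the 43. With sex alone as covariate 62 passed, and all 43 were among them. Over all genes tested the numbers moved the same way, from 3157 to 2502 with the score, 2583 with the block and 4076 with sex. *Zfp560* (log2 fold change -0.56), *Zfp457* (0.46) and *Zfp870* (-0.32) missed the threshold with the clock score. With the block *Zfp941* (-0.69), *Zfp560* (-0.69), *Zfp94* (-0.41), *Zfp799* (-0.39), *Zfp457* (0.62) and *Zfp870* (-0.29) missed it. All kept their direction.

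By chromosome, the Zfp genes were concentrated on chromosome 7 with 63 of the 252 genes, chromosome 17 with 28 and chromosome 8 with 21. On chromosome 7, 5 were higher and 5 lower in CC019, and the 10 of 63 compare with 24.2% of the 1020 genes tested on that chromosome. On chromosome 17 the number was 3 of 28, against 26.3% of 635 genes. On chromosome 8 it was 6 of 21, against 26.0% of 708 genes, and on chromosomes 5, 6 and 9 it was 4 of 14, 4 of 14 and 4 of 13, against 29.5%, 25.2% and 25.1%. None passed on chromosomes 1, 3, 10, 12, 14 and 16, which hold 3, 4, 2, 4, 4 and 5 Zfp genes. Of all genes tested there 25.8%, 25.7%, 20.9%, 17.2%, 23.6% and 18.3% passed, so that with so few Zfp genes little can be read from their absence.

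**Figure D2:**
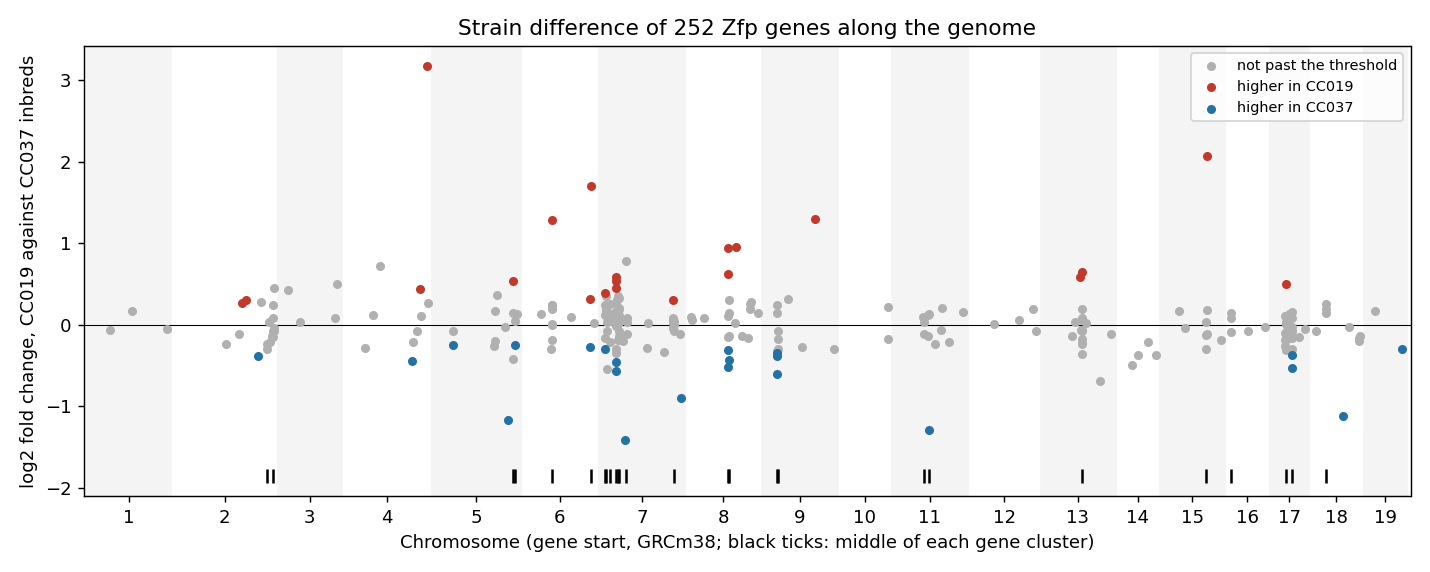
Log2 fold change between CC019 and CC037 inbreds (linear axis, positive where CC019 was higher) of 252 Zfp genes by chromosome and start. Red and blue points are the 21 and 22 genes past the threshold, and ticks mark the 26 gene clusters. No gene past the threshold lies on chromosomes 1, 3, 10, 12, 14 and 16.

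Neighbouring Zfp genes with gaps of at most 1 Mb formed 26 clusters of at least 3 genes, and 152 of the 252 lay in one. In the clusters 27 of 152 genes passed the strain threshold (17.8%), 14 of them higher and 13 lower in CC019, and outside them 16 of 100. Among the 210 other genes tested inside the same spans 52 passed (24.8%), 37 higher and 15 lower in CC019. In 11 clusters no member passed and in 9 a single one. Of the 6 clusters with at least 2 members past the threshold, these shared a direction in 3 and did not in the other 3.

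The largest cluster, on chromosome 17 from 21008903 to 23599487, had 19 Zfp genes, of which 14 were members, that is, among the 252. Their log2 fold changes ran from -0.31 to 0.50, and of these *Zfp40* alone passed (0.50, SE 0.15). The cluster on chromosome 7 from 29768552 to 30169750 had 15 Zfp genes and 9 members, among them *Zfp568*, whose protein represses a placental promoter of *Igf2*. None of these 9 passed, and their range was -0.17 to 0.33. On chromosome 2, from 174643534 to 178078476, none of 8 members passed, at a range of -0.15 to 0.45. None of the members of these 3 clusters had resolved alleles, and reads can be shared among near copies, so that each copy's own level is uncertain.

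In 3 clusters genes passed in both directions. On chromosome 8, from 69209038 to 69791178, 4 of 6 members passed. *Zfp868* and *Zfp963* were higher in CC019 (log2 fold changes 0.94 and 0.63) and *Zfp869* and *Zfp866* were lower (-0.52 and -0.31). *Zfp869* had 13.4 to 17.4 CPM in CC019 and 20.1 to 25.8 CPM in CC037, and *Zfp963* had 5.11 to 6.64 and 3.7 to 4.66 CPM, so that neither overlapped between the strains and they moved oppositely within 0.582 Mb. On chromosome 7, from 24081924 to 25227507, 5 of 12 passed. *Zfp180* (0.59), *Zfp112* (0.54) and *Zfp235* (0.45) were higher in CC019, and *Zfp93* (-0.46) and *Zfp94* (-0.56) were lower. By start, *Zfp180*, *Zfp112* and *Zfp235* come before all others of the 12, so the genes higher in CC019 lay side by side at one end. The versions of *Zfp93* had 5779 and 10690 bases.

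The smallest such cluster, on chromosome 7 from 4915217 to 5053723, had *Zfp524* higher (0.39) and *Zfp865* lower (-0.30) in CC019.

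Of the remaining clusters described, 3 had at least 2 members past the threshold, in 1 direction each, and the others had 1 or none. On chromosome 9, from 19622102 to 20605409, *Zfp317* (-0.38), *Zfp560* (-0.60) and *Zfp426* (-0.35) passed, all 3 lower in CC019, and the range over the 6 members was -0.60 to 0.25. On chromosome 6, from 117841180 to 118479320, both members, *Zfp637* (0.32) and *Zfp9* (1.70), were higher in CC019. On chromosome 13, from 67038596 to 67827002, 1 of 10 members passed, *Zfp457*, although 16 Zfp genes lie there. On chromosome 17, from 32765496 to 33631779, 2 of 10 passed, *Zfp799* (-0.53) and *Zfp870* (-0.37), both lower in CC019. On chromosome 7, from 127233061 to 127885996, 1 of 9 passed, *Zfp771* (0.30). The cluster of *Zfp809*, whose protein silences murine leukemia virus, lies on chromosome 9 from 22055411 to 22307648, and none of its 3 members passed (-0.29 to -0.08).

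The second comparison asked, within the F1s, whether the CC019 and the CC037 allele of a gene gave unequal counts in the same cells. Of 86 resolved Zfp genes 32 passed (37.2%), against 48.1% of the 4052 resolved autosomal genes tested. The CC019 allele was higher in 22 (25.6%), against 24.5% of all genes, and the CC037 allele in 10 (11.6%), against 23.6%. The median absolute log2 ratio was 0.21 over the Zfp genes and 0.19 over all genes, with a median SE of 0.12 and 0.07, so that the lower share of calls does not show smaller allelic differences. The median log2 ratio was 0.07 over the Zfp genes and 0.00 over all genes. This split moves with the scaling. When each allele's own total was taken as library size, the median of all genes shifted to 0.12, and 34 Zfp genes passed with the CC019 allele higher (39.5%, against 39.9% of all genes) and 6 with the CC037 allele higher (6.98%, against 14.5%). Among the 83 genes with versions of equal length, tested on their own, 20 and 8 passed (24.1% and 9.64%, against 23.3% and 22.4% of 3745 genes), a selection made after the data were seen.

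The CC019 allele was most in excess in *Zfp618*, a gene of 1.21 CPM on chromosome 4. It held 42.6 to 80.5% of counts in the 14 F1s, with a median of 74.8%, and was the higher allele in 13 of 14. The log2 ratio was 1.36 (SE 0.20, adjusted p = 2.52e-05 by edgeR). At least 20 counts per mouse lay behind each share, so that single values are imprecise. *Zfp595* (chromosome 13, 67312998 to 67332570) had a CC019 share of 61.2 to 86.7% with a median of 67.7%, above 50% in 14 of 14 F1s (log2 ratio 1.33, SE 0.16, adjusted p = 2.88e-06 by edgeR). *Zfp963*, on chromosome 8, had 53.9 to 73.3% with a median of 62.1%, also in 14 of 14 (0.80, SE 0.10). *Zfp112* (0.83, SE 0.17), *Zfp9* (0.79, SE 0.20) and *Zfp329* (0.76, SE 0.15) were each higher from the CC019 allele in 13 of 14 F1s. In the CC019 x CC037 F1s alone, with fewer mice, *Zfp112* (0.63), *Zfp9* (1.10) and *Zfp329* (0.66) missed the threshold. The versions of *Zfp112* had 2107 bases for CC019 and 2929 for CC037, and those of *Zfp329* 6752 and 7745 bases, so that the longer version had the fewer counts in both.

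The CC037 allele was most in excess in *Zfp619*, *Zfp61* and *Zfp39*. The CC019 share of *Zfp619* was 22.9 to 40.6% with a median of 34.9%, below 50% in 14 of 14 F1s (log2 ratio -1.02, SE 0.12, adjusted p = 3.18e-06 by edgeR). Its versions had 5602 bases for CC019 and 5973 for CC037, so that here, unlike in *Zfp112* and *Zfp329*, the longer version had more counts. *Zfp39* had 26.9 to 39.9% with a median of 33.8% (-0.99, SE 0.08, adjusted p = 2.69e-08 by edgeR), and *Zfp61* 17.2 to 48.9% with a median of 36% (SE of the log2 ratio 0.20). No F1 had the CC019 allele higher in any of these 3 genes. *Zfp691* (-0.67, SE 0.09) and *Zfp512* (-0.36, SE 0.07) had the CC037 allele higher in every F1 as well, and *Zfp94* (-0.44, SE 0.11) in all but 1. In the CC019 x CC037 F1s alone *Zfp512* (-0.26) and *Zfp94* (-0.38) missed the threshold.

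**Figure D3:**
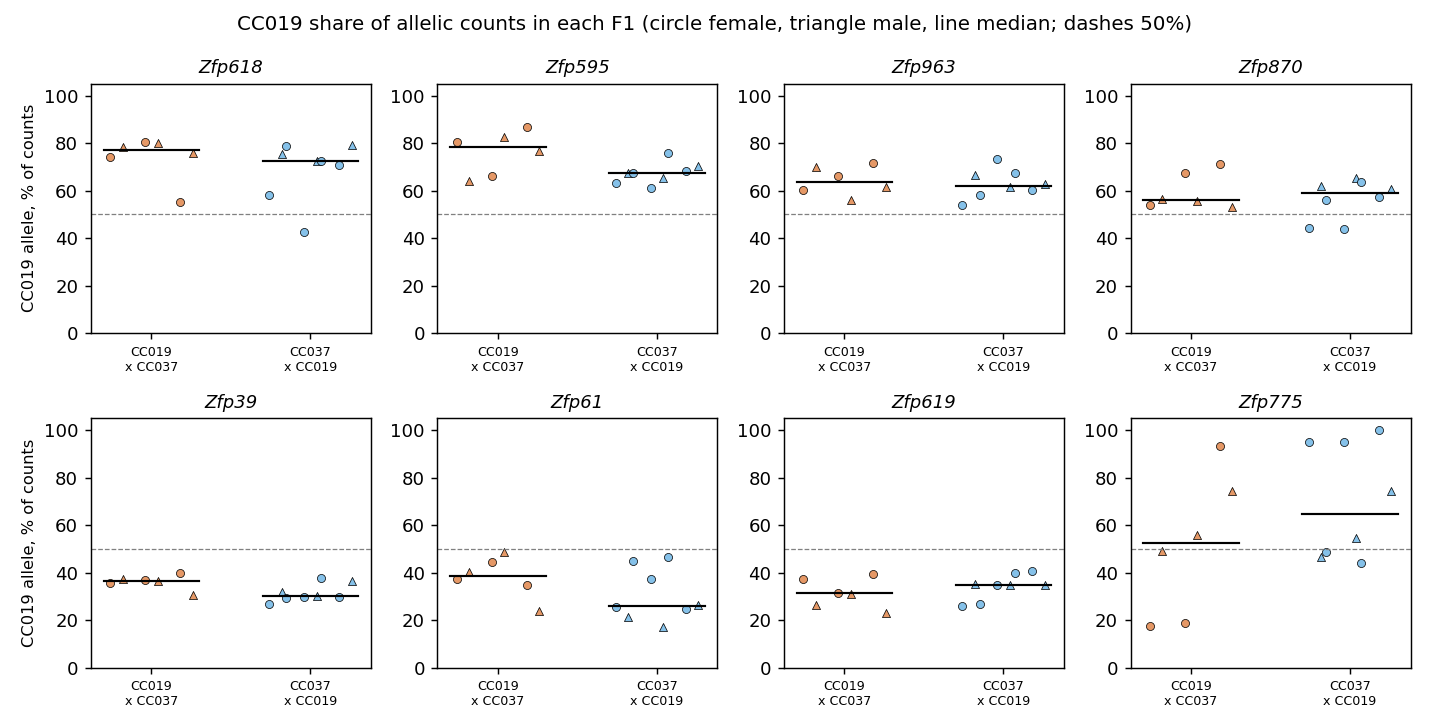
CC019 share of allelic counts (percent, linear axis from 0) of 8 Zfp genes in each F1 of both crosses (circles, females; triangles, males; line, median; dashes, 50%). In *Zfp39*, *Zfp61* and *Zfp619* all 14 F1s lie below 50%, whereas *Zfp775* runs from 17.4 to 100%.

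A gene with a very wide spread was *Zfp775*, singled out after its values were seen. Its CC019 share was 17.4, 18.7, 49, 56, 74.4 and 93.5% in the CC019 x CC037 F1s, and in the reciprocal F1s it was 44, 46.8, 48.6, 54.6, 74.6, 95, 95.2 and 100%. At 133 to 349 counts per mouse, the SD of 27.4% between mice was the largest of the 86 genes, and 71 of 4052 genes had a larger one. The median SD was 7.53% over the Zfp genes and 4.52% over all genes, and among genes with at least 100 counts in every F1 it was 6.08% over 60 Zfp genes and 3.76% over 3237 genes. Its versions passed the allele filter with 94.5% or more of counts on the own allele in the inbreds, and its log2 ratio of 0.94 (SE 0.62) missed the threshold, whereas its total level differed between the strains without overlap. Of the other members, likewise chosen after their values were seen, *Zfp418* ran from 0 to 100% at 26 to 83 counts per mouse, *Zfp810* from 13.4 to 76.5% at 126 to 471 counts, and *Zfp768* from 19.1 to 73.1% at 557 to 1309 counts. *Zfp428*, *Zfp369* and *Zfp316* had SDs between those of *Zfp418* and *Zfp768*, at 18.3, 17.3 and 17.2%.

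A further test asked whether the allelic ratio depended on which strain was the mother. None of 86 Zfp genes passed the edgeR test between the cross directions, against 0.148% of 4052 genes, with 0.0987% relatively higher from the CC019 allele when CC019 was the mother and 0.0494% lower. At an unadjusted p of at most 0.05 there were 3 of 86 (3.49%), against 6.29% of all genes. These were *Zfp128* (log2 difference 0.68, SE 0.27), *Zfp768* (-1.01, SE 0.41) and *Zfp595* (0.70, SE 0.28), named here because of their values. The CC019 share of *Zfp595* was 64.2 to 86.7% (median 78.5%) where CC019 was the mother and 61.2 to 76% (median 67.2%) in the reciprocal F1s, so that the crosses overlapped. The differences of the Zfp genes in this test ran from -1.47 to 0.80 with a median SE of 0.24, so that with 6 and 8 mice even a large one need not pass.

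Next, the strain difference in inbreds was set against the allelic ratio in F1s. Allelic counts within an F1 share one cellular environment, whereas the inbreds also differ in everything else their genomes encode. Of the 86 resolved Zfp genes 11 passed both tests (12.8%), against 21.6% of 4052 genes, and 10 of the 11 had the same sign (11.6% of 86, against 20.3% of all genes). A further 21 passed the allelic test alone (24.4%, against 26.6% of all genes) and 2, *Zfp775* and *Zfp865*, the strain test alone (2.33%, against 9.28%). In *Zfp39* the values were -1.29 and -0.99, in *Zfp619* -1.41 and -1.02, in *Zfp963* 0.63 and 0.80, and in *Zfp68* 0.54 (SE 0.07) and 0.45 (SE 0.05). In *Zfp9*, which also passed both, the values lay further apart, at 1.70 and 0.79. In none of these genes did the test of the difference pass.

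Strain difference and allelic ratio differed from each other in 6 of 86 Zfp genes (6.98%), against 14.4% of 4052 genes, in a joint edgeR test of both. In 2 of them (2.33%, against 7.38%) the strain difference lay above the allelic ratio and in 4 (4.65%, against 7.01%) below. The clearest was *Zfp595*. Its total was 2.96 to 4.43 CPM in CC019 (median 3.83) and 3.72 to 4.8 CPM in CC037 (median 4.01), ranges that overlap, although the CC019 allele prevailed in every F1. The strain log2 fold change was -0.07 (SE 0.10) and the allelic ratio 1.33, and the difference between them was -1.35 (SE 0.21, adjusted p = 4.17e-05 by edgeR). It lies in the cluster on chromosome 13.

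*Zfp61* showed the other direction. Its total was 0.418 to 1.74 CPM in CC019 and 0.581 to 1.06 CPM in CC037, without a difference past the threshold (0.27, SE 0.25), although the CC037 allele was higher in every F1 (difference 1.24, SE 0.33, adjusted p = 0.0113 by edgeR). It had as few as 22 counts in an F1. With the CC019 x CC037 F1s alone both its allelic ratio (-0.69, adjusted p = 0.117) and this difference (0.92, adjusted p = 0.169 by edgeR) missed the threshold. *Zfp870* was the only Zfp gene past both tests with opposite signs. It had 5.01 to 7.14 CPM in CC019 and 6.42 to 9.94 CPM in CC037 (-0.37, SE 0.11), but its CC019 allele held 43.7 to 71.1% of counts in the F1s, with a median of 56.9%, and was higher in 12 of 14 (0.46, SE 0.12). The difference was -0.81 (SE 0.18, adjusted p = 0.00241 by edgeR), and its strain call ended without CC019 replicate male_2 (-0.33, adjusted p = 0.0603). In each cross alone, with fewer mice, its allelic ratio missed the threshold. It was 0.56 in CC019 x CC037 (adjusted p = 0.068) and 0.39 in the reciprocal F1s (adjusted p = 0.0771 by edgeR).

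The other 3 were *Zfp930* (-0.49, SE 0.16, adjusted p = 0.038), *Zfp652* (-0.30, SE 0.10, adjusted p = 0.0396) and *Zfp672* (0.28, SE 0.09, adjusted p = 0.0288 by edgeR). Leaving out 1 mouse ended the call of *Zfp930* in 15 of 29 cases, that of *Zfp652* in 11 and that of *Zfp672* in 3. Those for *Zfp672* were CC019 replicates male_1 (0.25) and male_3 (0.24) and CC019 x CC037 replicate female_4 (0.26). With the F1s of 1 cross alone none of these 3 genes passed. In this order, the values were -0.47, -0.30 and 0.26 with CC019 x CC037, and -0.50, -0.31 and 0.29 with the reciprocal F1s. *Zfp652* did not pass the allelic test, at a CC019 share of 46.8 to 57% with a median of 50.1%. With each allele's total as library size its CC019 allele was higher (0.14, adjusted p = 0.00828 by edgeR). Because inbreds and F1s were sequenced in separate batches, the part of batch in these differences cannot be told apart.

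**Figure D4:**
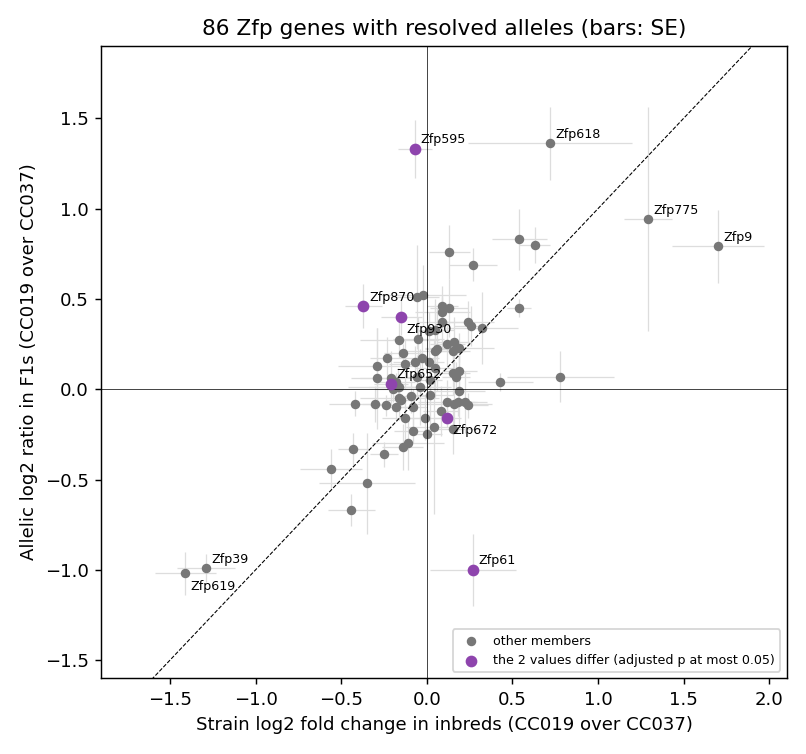
Strain log2 fold change in inbreds (x axis) against allelic log2 ratio in F1s (y axis) of the 86 resolved Zfp genes, both CC019 over CC037, with SE bars and a dashed line of equal values. The 6 purple genes differ between the 2 measures by the joint test, and *Zfp595* and *Zfp61* lie farthest from the line among them.

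Members in clusters and outside them were also counted for the allelic test, with 23 of 55 (41.8%) and 9 of 31 past the threshold, against 32 of 56 (57.1%) of the other genes inside the cluster spans. In the cluster on chromosome 11 from 58307069 to 59472474, all 3 resolved members, *Zfp692* (-0.32), *Zfp672* (-0.16) and *Zfp39* (-0.99), had the CC037 allele higher. With each allele's total as library size *Zfp692* (-0.20) and *Zfp672* (-0.04) no longer passed. In the cluster on chromosome 6 from 47819266 to 48623227, *Zfp282* (0.32), *Zfp956* (0.37) and *Zfp467* (0.23) had the CC019 allele higher, 3 of 6 resolved genes there, and none had the CC037 allele past the threshold. In the cluster on chromosome 18 from 23954692 to 24020810 both resolved members, *Zfp397* (0.21) and *Zfp35* (0.35), had the CC019 allele higher. Of 7 clusters with at least 2 members past the allelic threshold, these shared a direction in 6, the 3 above among them, whereas on chromosome 7 from 24081924 to 25227507 *Zfp112* (0.83) differed in sign from *Zfp61* and *Zfp94* (-0.44), both higher from the CC037 allele, which lie next to each other.

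Sex was examined as a readout the choice of genes did not use. Of 252 Zfp genes 68 differed between females and males with strain or cross as covariate (27.0%), against 41.3% of 13185 genes. Higher in females were 27 (10.7%, against 20.1%) and higher in males 41 (16.3%, against 21.2%). The median absolute log2 difference was 0.10 over the 252 Zfp genes and 0.16 over all genes, and over those that passed it was 0.27 and 0.33. In the inbreds alone 40 passed (15.9%, against 28.3% of all genes). There 22 (8.73%, against 14.3%) were higher in females and 18 (7.14%, against 14%) in males, a near-even split in both sets of genes. In the F1s alone 23 passed (9.13%, against 21.5%). Of these, 10 (3.97%, against 12.1%) were higher in females and 13 (5.16%, against 9.43%) in males, whereas over all genes more were higher in females.

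*Zfp141*, on chromosome 7, differed most clearly. It had 2.45 to 3.48 CPM in the 16 females (median 3.01) and 4.49 to 10.1 CPM in the 13 males (median 5.34). Every male was above every female, at a log2 difference of -1.14 (female against male, SE 0.09, adjusted p = 2.64e-10 by edgeR). *Zfp618* had 0.17 to 2.06 CPM in females and 0.698 to 3.49 CPM in males, which overlapped (-1.24, SE 0.23). *Zfp157* (-0.47, SE 0.10) and *Zfp970* (-0.47, SE 0.12) were likewise higher in males, with overlap. In the 15 inbreds alone neither passed (-0.28 and -0.45, adjusted p of 0.119 and 0.0735 by edgeR), and in CC019 *Zfp157* had 8.68 to 10.9 CPM in females and 7.01 to 9.45 CPM in males.

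In females the largest differences were those of *Zfp13*, *Zfp292*, *Zfp334* and *Zfp28*. *Zfp292*, a large nuclear zinc finger protein gene on chromosome 4, had 23.4 to 41.5 CPM in females (median 30.4) and 10.9 to 25.4 CPM in males (median 16.8). The sexes overlapped only between 23.4 and 25.4 CPM (0.79, SE 0.09, adjusted p = 8.06e-08 by edgeR). *Zfp334* had 2.8 to 4.86 CPM in females and 1.34 to 3.67 CPM in males (0.79, SE 0.10), *Zfp13* 2.12 to 3.99 and 0.885 to 2.93 CPM (0.84, SE 0.13), and *Zfp28* 1.61 to 3.44 and 0.579 to 3.15 CPM (0.78, SE 0.17). In the 14 F1s alone *Zfp28* missed the threshold (0.47, adjusted p = 0.128 by edgeR). Markers of other cells moved with sex too. All 5 Kupffer cell markers and all 5 lymphocyte markers were higher in females, and the summed Kupffer cell markers were 169 to 541 CPM in females and 52.2 to 172 CPM in males. All 3 proliferation markers tested were higher in females (*Mki67* by 2.68 on the log2 scale), with sums of 1.86 to 68 CPM in females and 1.08 to 5.92 CPM in males. So were 3 of 5 endothelial and 3 of 5 stellate markers, whereas the erythroid *Alas2* was higher in males (-3.25). Of the hepatocyte markers *Alb* (0.27) was higher in females and *Apoa1* (-0.49) and *Ttr* (-0.40) in males, and of the cholangiocyte markers *Epcam* (0.76) in females and *Sox9* (-0.62) in males. The summed hepatocyte markers did not overlap between the sexes in CC037 x CC019, at 121482 to 132526 CPM in females and 87320 to 93895 CPM in males, nor in CC019, at 107855 to 118579 and 93127 to 106695 CPM. The clock score separated the sexes in CC019 x CC037, at 1.46 to 3.04 in males and -1.66 to -1.46 in females. The part of these markers and of the clock score in the sex differences of the Zfp genes was not tested.

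Partners of KRAB zinc finger proteins and DNA methylation enzymes were read from a list of 19 genes, of which 18 were tested and *Uhrf1* (0.589 CPM) was not. None was higher in CC019 and 3 of 18 were lower, where 23.9% of all genes passed in either direction, with a median log2 fold change of -0.05, against 0.01 over all genes. These were *Dnmt3b*, a de novo DNA methyltransferase, with 1.59 to 3.17 CPM in CC019 and 2.88 to 6.3 CPM in CC037 (-0.79, SE 0.18, adjusted p = 0.00515 by edgeR), *Cbx5*, a heterochromatin protein (-0.29, SE 0.10), and the deacetylase *Hdac1* (-0.20, SE 0.07). The versions of *Hdac1* had 2051 bases for CC019 and 1315 for CC037. Versions of unequal length held 98.9% of its counts and 28.6% of those of *Dnmt3b*. The part of this in their differences was not tested. *Trim28*, the corepressor that KRAB domains bind, had 71 to 93.6 CPM in CC019 and 77.2 to 86.1 CPM in CC037 (0.08, SE 0.05) and did not pass, nor did the histone methyltransferase *Setdb1* (0.09, SE 0.08). In the F1s the alleles of *Trim28* differed slightly and passed narrowly (0.10, SE 0.04, adjusted p = 0.0477 by edgeR). Its CC019 share was 48.1 to 56.1%, with the CC019 allele higher in 8 F1s and the CC037 allele in 6. The alleles of *Atf7ip*, a partner of *Setdb1*, differed more (-0.20, SE 0.03), with the CC037 allele higher in 13 F1s and the CC019 allele in 1.

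The remaining partners did not pass between the strains. Their log2 fold changes were -0.26 for *Atf7ip*, 0.28 for *Resf1*, 0.02 for *Cbx1*, -0.05 for *Cbx3*, -0.05 for *Chd3*, -0.15 for *Chd4*, -0.09 for *Hdac2*, -0.03 for *Smarcad1*, -0.07 for *Morc3*, -0.17 for *Dnmt1*, 0.24 for *Dnmt3a*, 0.51 for *Trim24* and -0.04 for *Trim33*. Between the sexes 4 of 18 partners were higher in females and 3 in males, and 41.3% of all genes passed in either direction. *Trim24* differed by 2.50 on the log2 scale (adjusted p = 1.11e-17 by edgeR), more than any of the 252 Zfp genes.

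Other zinc finger families, with the same lower limit on the mean CPM, were counted beside the Zfp genes. Of 83 genes named Zscan, Zkscan, Zbtb, Klf or Zfp with a letter after the number, 15 passed between the strains, against 23.9% of all genes. By direction, 11 of 83 were higher in CC019, against 12.7% of all genes, and 4 of 83 lower, against 11.3%. Between the alleles 8 of 25 resolved genes passed, against 48.1%. *Zfp874b*, in the same family, had 7.04 to 8.54 CPM in CC019 and 3.93 to 4.87 CPM in CC037, without overlap (0.87, SE 0.08). *Rsl1*, which represses male-specific liver genes, had 0 counts in every mouse. Its reference sequence had 72 bases in both versions, less than a read of 150 bases, so that this says nothing of its expression. *Rslcan18* had 0.829 CPM, below the level asked of the Zfp genes (0.76, SE 0.28, adjusted p = 0.0596).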

How the data were processed

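Liver mRNA was selected by poly(A) and sequenced from strand-specific libraries. The authors assigned reads with Salmon 1.9.0 to a transcriptome holding both strains' sequences, and the deposited values are expected counts per gene and allele. Per the file headers, the deposited transcript files hold estimated counts, lengths and TPM for both versions of each transcript, and TPM were summed by gene here. Of 42880 identifiers 42455 matched GENCODE M21 (GRCm38), which gave symbols, biotypes and positions, and 425 did not. The transcripts of 249 of the 252 Zfp genes matched their gene counts within 2%, and the other 3 have no TPM here.

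The members and lists were chosen with earlier results of these data known. Of 30 mice 1 female F1 was left out by the rule and entered only the alternatives with all 15 F1s. Expected counts were rounded to whole numbers. All tests were two-sided quasi-likelihood tests of edgeR 4.0.16 (limma 3.58.1, R 4.3.3) with Benjamini-Hochberg adjustment over all genes tested, those reaching 0.5 CPM in most of the 29 mice. Totals were normalized with TMM. Allelic tests had the mouse as block and its total as library size, and were limited to autosomal genes with at least 90% of counts on the own allele in every inbred. The joint test took own-allele counts of inbreds and both alleles of F1s, with 1 dispersion per gene. Clusters needed at least 3 Zfp genes, 2 of them members, with gaps of at most 1 Mb. Alternatives included DESeq2 1.42.0, other normalizations and filters, sex, clock score and replicate block, each cross or sex alone, and each mouse left out in turn. Each test was first run on simulated counts in which 200 genes had been changed. TPM were limited to matching genes, and genes with versions of equal length tested on their own, after seeing the data.

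Named genes were the 8 highest and 8 lowest strain differences past the threshold, the 6 highest and 6 lowest allelic ratios, those of opposite sign, those past the joint test, the 4 highest and 4 lowest sex differences, up to 4 examples per cluster, the 5 highest and 5 lowest TPM, the 3 genes on each side of the CPM limit, and the silencing partners. Some genes singled out after their values were seen are named as such. Others outside these rules, among them *Zfp68*, *Zfp120* and *Zfp874b*, are not marked where they appear. Protein sequences were not used here, so zinc fingers were not counted.

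Same-numbered inbreds of a sex are different mice. Their deviations from the group mean correlated at 0.252 to 0.499, but once each sex had its own mean the correlations ran from -0.22 to 0.18, so that the number carries mainly the sex.

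The SE and p cover the spread between mice of one batch, allelic counts of genes with few reads are imprecise, and reads shared by near-identical copies leave each copy's count uncertain.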

Additional observations from a re-analysis of the deposited data

Results flagged for a closer look

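Among 130 groups of values examined for a mouse far from the others, 11 had one, and about 1 in 20 would by chance. In CC019, *Zfp94* was at 2.19 CPM in replicate male_2 (others 1.19 to 1.55) and *Zfp618* at 1.6 CPM in the same mouse (others 0.853 to 1.11). *Zfp251* was at 1.38 CPM in CC019 replicate male_3 (others 2.15 to 2.47), and *Zfp963* at 5.11 CPM there (others 6.27 to 6.64). Beside the 5 other F1s of its cross, in the F1 CC019 x CC037 replicate female_4 the CC019 allele had 33.3% of the counts of *Zfp94* (others 43.9 to 48.9%), 55.3% of those of *Zfp618* (others 74.3 to 80.5%) and 42.6% of those of *Zfp930* (others 55.8 to 62.7%). The reciprocal F1s reached down to 32.3, 42.6 and 47.7% for these 3 genes, so that among all 14 F1s this mouse was the lowest for *Zfp930* alone. Without this F1 32 Zfp genes passed the allelic threshold, 31 of them among the 32 that passed with it. The CC019 replicate female_3 stood out with 882 CPM of erythroid and 68 CPM of proliferation markers, the CC037 x CC019 replicate female_3 with 32.3 CPM of proliferation markers, and the CC019 x CC037 replicate female_1 with 673 CPM of stellate markers (others 98 to 235 CPM). Most of these 673 CPM came from *Des* alone, at 527 CPM in this mouse and a median of 5.57 CPM over all mice.

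Strain difference and allelic ratio differed, by the joint test, in *Zfp595* (-1.35), *Zfp61* (1.24), *Zfp870* (-0.81), *Zfp930* (-0.49), *Zfp652* (-0.30) and *Zfp672* (0.28). The part of batch in them cannot be told apart.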

How the results depend on the processing

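With the replicate number as block, 25 Zfp genes passed between the strains. Of these, 17 (6.75%, against 9.05% of all genes) were higher and 8 (3.17%, against 10.5%) lower in CC019. The replicate numbers may share no more than the sex. With the clock score as covariate 11 Zfp genes (4.37%, against 9.65% of all genes) were higher in CC019 and 22 (8.73%, against 9.32%) lower. In males alone 4927 of all genes passed. In CC019 x CC037 F1s alone 9 passed the allelic test (6 with the CC019 and 3 with the CC037 allele higher, 1127 of all genes), with fewer mice. With each allele's total as library size 34 and 6 passed (1615 and 587 of 4052 genes), since this scaling shifts every ratio. Between cross directions 10 of all genes passed at an allele filter of 80%. For strain difference minus allelic ratio, 3 of 61 Zfp genes passed at a filter of 95% (1 above and 2 below, 495 of 3381 genes), which left 2 of the 6 genes to test, both past the threshold, and 2 in CC019 x CC037 F1s alone (0 above and 2 below), 4 lay above at 80%, and of all genes 229 passed in CC019 x CC037 F1s and 342 in the reciprocal F1s. Between the sexes 40 Zfp genes passed in inbreds alone, 22 higher and 18 lower in females (3731 of all genes, 1884 higher and 1847 lower). In F1s alone 23 passed, 10 higher and 13 lower (2839 of all genes, 1596 higher and 1243 lower). Where no reason is given the cause was not tested. *Zfp652* reversed, without passing, to 0.01 between strains in females alone but passed in males alone (-0.46) and with the clock score (-0.37), and its allelic ratio ran from -0.00 to 0.04 over single mice left out. Leaving out each mouse in turn gave 33 to 48 Zfp genes between the strains (17 to 24 higher and 16 to 24 lower, 2629 to 3343 of all genes), 29 to 33 in the allelic test (20 to 24 and 9 to 10, 1879 to 1921), 0 between cross directions (2 to 6 of all genes), 4 to 8 in strain difference minus allelic ratio (1 to 3 and 2 to 6, 463 to 708) and 62 to 74 between the sexes (25 to 33 and 36 to 43, 5080 to 5947). For the cross directions it was 2 of all genes without CC019 x CC037 replicates male_3 or female_2, and 3 without CC037 x CC019 replicates male_2, female_1 or female_3. For strain difference minus allelic ratio 1 Zfp gene lay above without CC019 replicates male_1 or male_3 or CC019 x CC037 replicate female_4, and 2 below without CC037 replicates male_1, male_2, male_3 or male_4. Of the values of named genes under other settings, 195 of 220 strain differences, 140 of 152 allelic ratios, 19 of 26 differences between them and 29 of 32 sex differences kept direction and side of the threshold, and 22, 11, 7 and 3 no longer passed.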
